A study of Homo sapiens with 10 samples.

Results

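Metallothioneins are small, cysteine-rich proteins that bind zinc, copper and cadmium and buffer the free metal inside the cell. Transcription of their genes follows the zinc-sensing factor MTF1, which binds short metal response elements in their promoters and in that of SLC30A1. SLC30A1 is the plasma membrane transporter that moves zinc out of the cytosol. Healthy prostate epithelium is known for holding unusually high zinc, and prostate carcinoma for having lost much of it. The genes described here are 6 metallothioneins (MT1E, MT1F, MT1G, MT1M, MT1X and MT2A), MTF1 and SLC30A1, 8 of the 57445 gene identifiers counted. They were found by matching the Ensembl identifiers of the count tables to gene symbols, and all 8 were present.

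The counts came from RNA-seq of PC3, an established human prostate cancer line taken from a bone metastasis; each of 5 groups had 2 libraries. Cells stably expressing a short hairpin RNA made up 3 groups, labelled RNF2 shRNA2, RNF2 shRNA1 and Scramble, the control hairpin. The other 2 groups were PC3 cells exposed for 48 hours to GW-516 or to PRT4165, with no hairpin, dose or vehicle named in the labels. RNF2 is a catalytic subunit of Polycomb repressive complex 1 (PRC1), which ubiquitinates histone H2A at silenced genes, and the compound PRT4165 is known to inhibit this activity. GW-516 is given in the labels as a code name, and all cells grew in serum-containing medium. The study's title concerns PRC1 in the spread of prostate cancer. Scramble was the only control for the compounds, so vehicle, hairpin vector and culture cannot be told apart from the compound.

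Total counts ran from 65877850 to 108380198 per library, and levels below are CPM, a gene's share of the library's counts after TMM scaling. The epithelial keratins KRT8 and KRT18 were at 95.9 to 180.1 and 313.7 to 465.9 CPM. Markers of other cell types were near 0: summed levels reached at most 0.533 CPM for blood cells, 0.190 for endothelium, 0.947 for fibroblasts and 0.0592 for neuroendocrine cells. RNF2 was at 12.1 and 11.96 CPM with RNF2 shRNA1, against 30.6 and 28.3 CPM with Scramble. In the libraries labelled RNF2 shRNA2 it was at 33.5 and 35.3 CPM, not lower than in Scramble, while BMI1, another PRC1 gene, was at 53.0 and 61.6 CPM against 251.5 and 254.7 CPM in Scramble. These 2 libraries therefore go against their label. They also stood apart from each other, with a chi-square per degree of freedom between their counts of 12.2, against 6.89 for PRT4165 and 2.15 to 2.2 for Scramble, RNF2 shRNA1 and GW-516. Counting both ends of a fragment raises that value above 1 by itself, so each of the last 3 pairs may be a single sample measured in repeat. Nothing in the labels gives separate cultures, and p-values measure the spread between these libraries, which may be technical. For the members and their sum, where counting each of the 3 pairs as 1 sample (7 samples in all) ends a call, that is given beside it. For the other genes named below no such value is given, so their calls hold for the fit to all 10 libraries only.

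Of the 6 metallothioneins, MT2A and MT1X carried nearly all the counts. MT2A (ENSG00000125148.6, GRCh37 chromosome 16, 56642111 to 56643409, plus strand) had 140592 counts over the 10 libraries. MT1X (ENSG00000187193.8, 56716336 to 56718108, plus strand) had 7672 counts. MT1F (ENSG00000198417.5, 56691606 to 56694610, plus strand) followed with 120 counts. The remaining members were at the limit of detection: MT1G (ENSG00000125144.9, 56700643 to 56701977, minus strand) had 3 counts in 2 libraries, MT1E (ENSG00000169715.10, 56659387 to 56661024, plus strand) had 1 count, and MT1M (ENSG00000205364.3, 56666145 to 56667898, plus strand) had 0. A count of 0 allows up to 3 counts, or 0.0280 to 0.0468 CPM depending on the library, which covers counting error only. These 3 genes were too low to test, so 5 of the 8 members entered the tests.

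The metallothionein genes sit side by side on chromosome 16, where 15 loci of the family span 56598961 to 56718108. The 9 loci that are not members had 18 counts in all, and no more than 4 counts each. A list of 11 further metallothionein symbols, 10 of which matched an identifier, accordingly had 0 genes tested. The 3 detected genes MT2A, MT1F and MT1X were separated by loci at or near 0 counts.

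**Figure D1:**
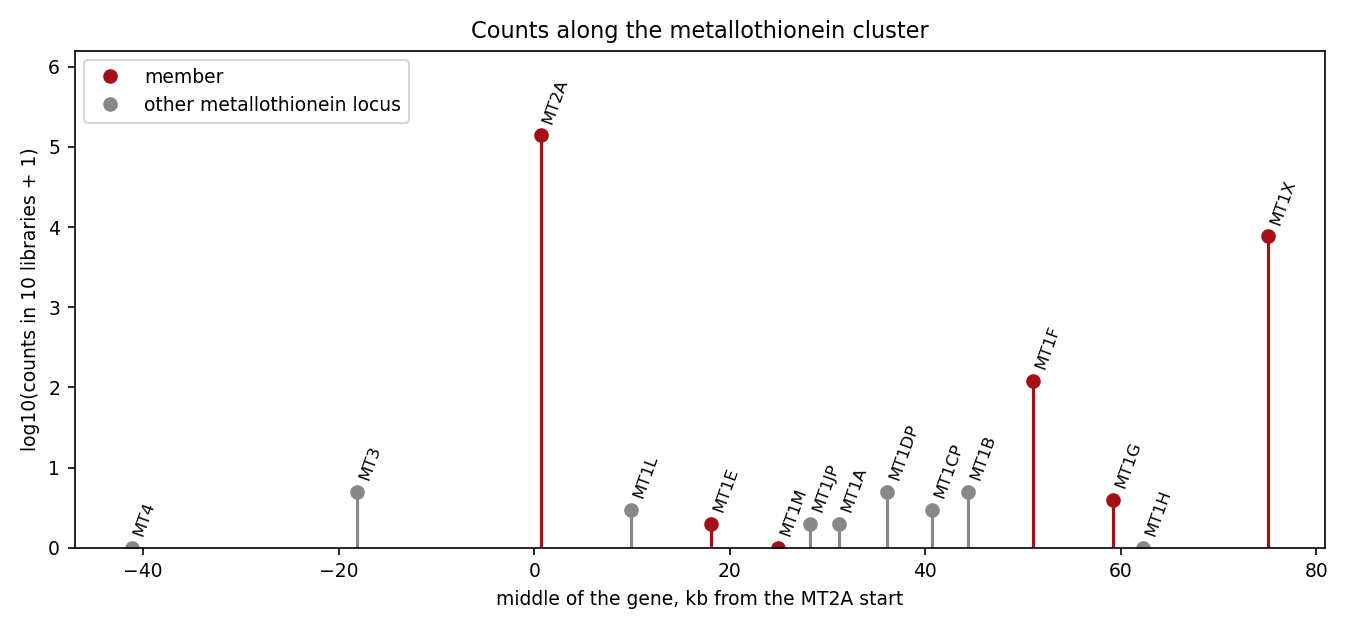
Counts summed over the 10 libraries for each metallothionein locus, as log10(counts + 1), against the distance of the middle of the gene from the MT2A start in kb; red marks members and grey the other loci. MT2A with 140592 counts and MT1X with 7672 stand above MT1F with 120, and every other locus has 4 or fewer.

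Near-identical copies can draw each other's reads. In GENCODE 29 transcripts, 3.02% of all 50-base words of MT2A, 1.22% of those of MT1F and 18.3% of those of MT1X also occurred in another gene. At 100 bases the share was 0% for all members but MT1X, at 11.3%, all of it in AC026461.1. In the counting annotation, 321 of the 1773 exon bases of MT1X overlapped ENSG00000259827.1 on the same strand, which had 0 counts. Reads over both genes may have been left uncounted, so this 0 does not show how many reads MT1X lost there. The handling of reads with several matches was not in the sources used here, so the counts of MT1X and of the low copies carry that uncertainty.

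The promoters are shown because MT2A, MT1X and SLC30A1 are known MTF1 targets. Whether MTF1 had a part in their changes was not tested. A table of RefSeq promoters on GRCh38.p14 matched 4 of the 8 members, MT2A, MT1X, SLC30A1 and MTF1. The 250 bases before the start are printed for the first 3 of them, 5′ to 3′ on the gene's strand. Capitals mark each match to the metal response element core, searched as TGCACNC or TGCGCNC on both strands. The windows are chr16:56608334-56608583 on the plus strand for MT2A, chr16:56682220-56682469 on the plus strand for MT1X and chr1:211579162-211579411 on the minus strand for SLC30A1.
MT2A: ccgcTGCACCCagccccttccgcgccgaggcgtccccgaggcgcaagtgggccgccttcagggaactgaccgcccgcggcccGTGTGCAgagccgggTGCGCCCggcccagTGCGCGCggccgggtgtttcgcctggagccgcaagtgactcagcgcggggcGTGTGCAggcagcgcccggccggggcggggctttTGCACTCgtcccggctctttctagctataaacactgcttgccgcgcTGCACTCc
MT1X: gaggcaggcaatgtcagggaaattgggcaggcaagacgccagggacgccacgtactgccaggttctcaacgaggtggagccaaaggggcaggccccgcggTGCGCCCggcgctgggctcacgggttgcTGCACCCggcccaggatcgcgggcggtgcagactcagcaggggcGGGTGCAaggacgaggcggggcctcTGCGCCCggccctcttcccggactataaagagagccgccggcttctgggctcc
SLC30A1: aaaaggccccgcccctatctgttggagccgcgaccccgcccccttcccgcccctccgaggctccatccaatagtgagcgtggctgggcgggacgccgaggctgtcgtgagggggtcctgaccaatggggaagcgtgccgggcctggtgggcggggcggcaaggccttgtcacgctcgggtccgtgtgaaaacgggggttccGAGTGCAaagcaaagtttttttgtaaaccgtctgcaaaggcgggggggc

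MT2A held 7 cores, 5 on the forward and 2 on the reverse strand, between 8 and 246 bases upstream of the start. Only 0.0313% of 35116 RefSeq promoter windows of this length held as many. MT1X held 4 cores, from 53 to 150 bases upstream, a number reached by 0.370% of windows. SLC30A1 held 1, on the reverse strand 49 bases upstream, where 24.8% of windows held at least 1, and MTF1 held 0. The antioxidant response element core, searched as TGACNNNGC on both strands, was present 1 time each in MT2A, MT1X and SLC30A1 and in 10.9% of all windows, and overlapped no metal response core. These are letter matches and do not show binding. MT1E, MT1F, MT1G and MT1M are named only.

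MT2A, the main metallothionein of these cells, ranged from 71.3 to 299.1 CPM over the 10 libraries. It had 182.7 and 130.5 CPM in the libraries labelled RNF2 shRNA2 and 71.3 and 73.5 CPM with RNF2 shRNA1. With GW-516 it had 299.1 and 295.0 CPM, with PRT4165 205.6 and 217.4 CPM, and with Scramble 158.5 and 156.2 CPM. GW-516 was highest and RNF2 shRNA1 lowest, with no overlap with any other group. The libraries labelled RNF2 shRNA2 lay on either side of Scramble.

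MT1X, a second metallothionein of the same cluster, was also highest with GW-516 and lowest with RNF2 shRNA1, at a lower level. Its values were 7.95 and 7.10 CPM in the libraries labelled RNF2 shRNA2, 2.41 and 2.90 CPM with RNF2 shRNA1, 20.1 and 19.7 CPM with GW-516, 10.8 and 10.0 CPM with PRT4165, and 7.61 and 7.28 CPM with Scramble. Again the libraries labelled RNF2 shRNA2 overlapped Scramble, and no other pair of groups did. Per kb of exon and averaged over the 10 libraries, the level of MT2A was 137.8 CPM per kb and that of MT1X 5.405 CPM per kb.

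SLC30A1 (ENSG00000170385.9, chromosome 1, 211744910 to 211752084, minus strand) followed a partly different order. It had 58.3 and 63.8 CPM in the libraries labelled RNF2 shRNA2, 37.5 and 35.8 CPM with RNF2 shRNA1, 77.6 and 77.4 CPM with GW-516, 80.8 and 78.2 CPM with PRT4165, and 48.1 and 47.2 CPM with Scramble. The exporter was highest with the compounds and lowest with RNF2 shRNA1, and here the libraries labelled RNF2 shRNA2 lay above Scramble. Its mean level was 11.05 CPM per kb, between MT2A and MT1X.

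MTF1 (ENSG00000188786.9, chromosome 1, 38275239 to 38325292, minus strand), the zinc-sensing regulator, changed least. Its values were 35.8 and 35.4 CPM in the libraries labelled RNF2 shRNA2, 36.3 and 35.1 CPM with RNF2 shRNA1, 39.2 and 39.8 CPM with GW-516, 36.3 and 34.3 CPM with PRT4165, and 31.8 and 32.9 CPM with Scramble. Every library of the other 4 groups lay above both Scramble libraries, which all 4 contrasts share. The share of all genes with such a layout was not computed, so it is not read as a result about MTF1. MT1F, the third detected metallothionein, had 10 and 6 counts in the libraries labelled RNF2 shRNA2, 2 and 0 with RNF2 shRNA1, 28 and 35 with GW-516, 12 and 17 with PRT4165, and 6 and 4 with Scramble. It passed the filter on low counts through the groups where it was high.

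**Figure D2:**
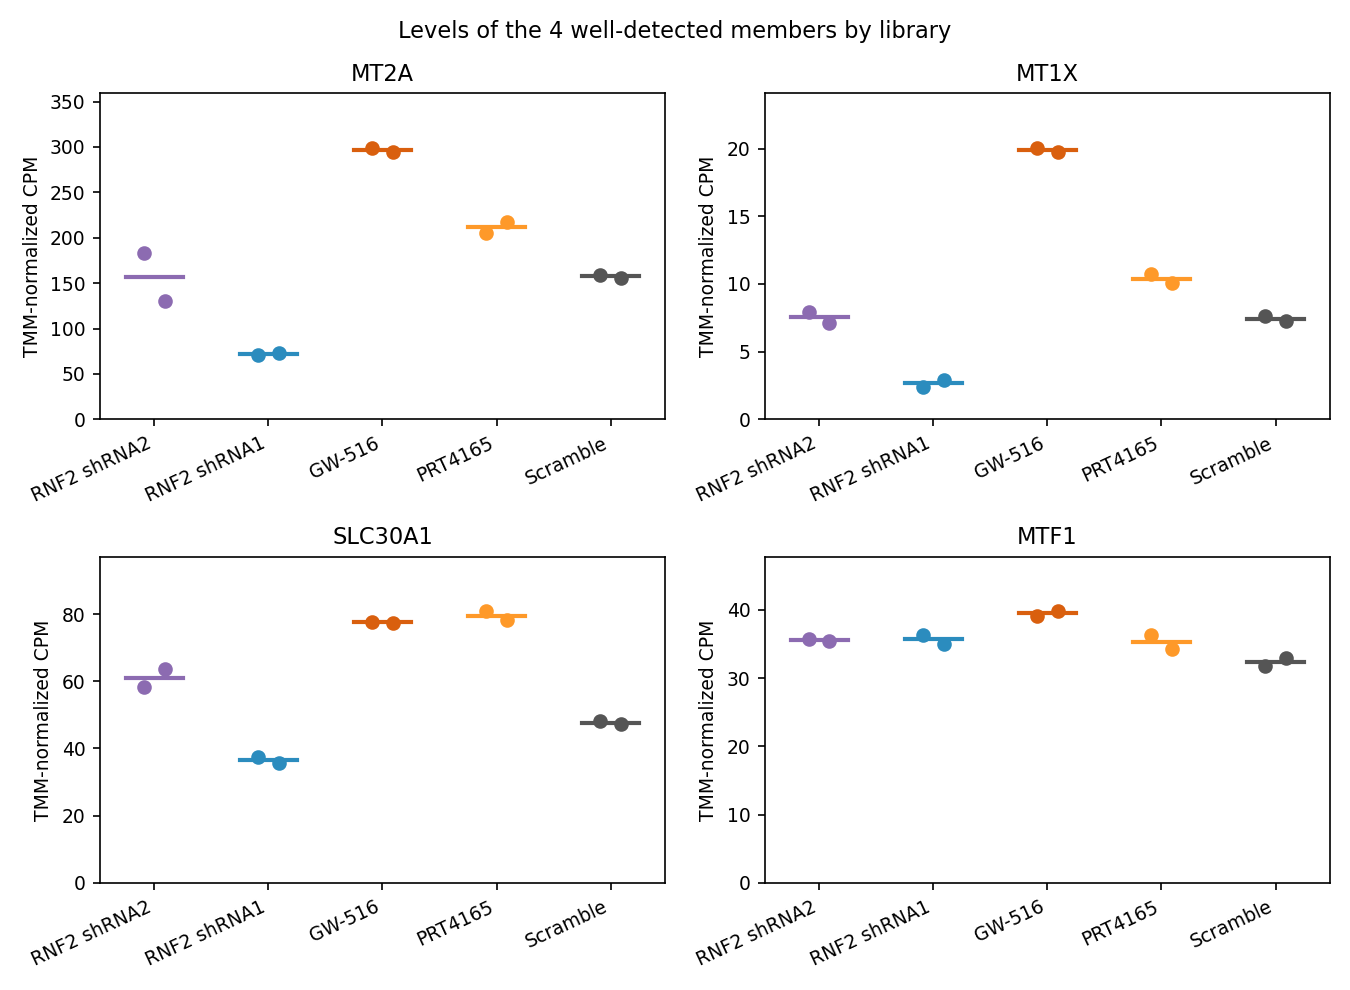
TMM-normalized CPM of MT2A, MT1X, SLC30A1 and MTF1 in each of the 10 libraries, by group; points are libraries, lines are group means and each vertical axis starts at 0. MT2A and MT1X are highest with GW-516 (299.1 and 295.0 CPM for MT2A) and lowest with RNF2 shRNA1, and the 2 libraries labelled RNF2 shRNA2 lie 1.399-fold apart in MT2A.

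With RNF2 shRNA1, MT2A, MT1X and the zinc exporter SLC30A1 were lower than with Scramble, and MTF1 was slightly higher. MT1X was 2.81-fold lower than in Scramble (log2 change -1.49, SE 0.107, adjusted p = 1.3e-11) and MT2A 2.17-fold lower (log2 change -1.12, SE 0.160, adjusted p = 0.0020), in edgeR's quasi-likelihood test adjusted over all 18478 genes tested. SLC30A1 was 1.30-fold lower (log2 change -0.38, SE 0.046, adjusted p = 1.4e-07). MTF1 was 1.10-fold higher (log2 change 0.14, SE 0.048, edgeR adjusted p = 0.014), and MT1F did not pass the test (adjusted p = 0.11). In bulk RNA, less transcript in every cell and fewer cells with much of it cannot be told apart. Among the members 3 were called lower and 1 higher, where 28.6% of all genes tested were called lower, 26.2% higher and 54.7% in either direction. Only 2.84% of genes changed as far downward as MT1X, and 5.04% as far as MT2A. With the 3 near-identical pairs counted as 1 sample each, MT2A (adjusted p = 0.147) and MTF1 (adjusted p = 0.167) lost their calls in edgeR; leaving out Scramble replicate 1 (adjusted p = 0.101) or RNF2 shRNA1 replicate 1 (adjusted p = 0.130) also ended that of MTF1.

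In the libraries labelled RNF2 shRNA2, SLC30A1 and MTF1 were higher than in Scramble and the metallothioneins gave no call. SLC30A1 was 1.28-fold higher (log2 change 0.36, SE 0.044, edgeR adjusted p = 3.4e-07) and MTF1 1.10-fold higher (log2 change 0.14, SE 0.047, adjusted p = 0.019). The log2 change of MT2A was -0.012, with a 95% interval from -0.40 to 0.38, and that of MT1X 0.0083, from -0.18 to 0.19. MT1F had 16 counts over both libraries against 10 over both Scramble libraries (edgeR adjusted p = 0.75). So 2 members were called, both higher, in a comparison where 21.1% of all genes were called higher, 21.0% lower and 42.1% in either direction. The MT2A value depended on the library: its log2 change was -0.27 without replicate 1 and 0.20 without replicate 2, each called by edgeR (adjusted p = 1.1e-07 and 1.6e-05). MTF1 lost its call without either of these libraries (adjusted p = 0.054 and 0.066), without Scramble replicate 1 (adjusted p = 0.205) and with the pairs counted as 1 sample each (adjusted p = 0.225 in edgeR).

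The gap of MT2A between these 2 libraries, 1.399-fold, was reached by 0.302% of the 9605 genes that averaged 10 CPM or more. In the other groups MT2A differed 1.01-fold to 1.06-fold between libraries. Exon length moved with that gap. The median log2 difference, replicate 2 minus replicate 1, was -0.13 over the 317 genes with under 1500 exon bases, -0.029 over 3016 genes of 1500 to 4000 bases and 0.020 over 6272 longer genes. MT2A has 1299 exon bases, and at -0.48 it lay farther out than all but 4.42% of the short genes. The part of exon length in the gap was not tested.

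Cells given GW-516 had the most metallothionein RNA, and MT2A, MT1X, SLC30A1 and MTF1 were higher than in Scramble. MT1X was 2.67-fold higher (log2 change 1.42, SE 0.084, edgeR adjusted p = 4.1e-13) and MT2A 1.89-fold higher (log2 change 0.92, SE 0.153, adjusted p = 0.0038). SLC30A1 was 1.63-fold higher (log2 change 0.70, SE 0.044, adjusted p = 1.0e-12) and MTF1 1.22-fold higher (log2 change 0.29, SE 0.047, edgeR adjusted p = 1.1e-05). MT1F had 63 counts over both libraries against 10 over both Scramble libraries and was let into the test by such high counts, so its call is not used. Beside these 4 members, 26.5% of all genes tested were called higher and 55.5% in either direction, and 5.78% changed as far upward as MT1X. With the pairs counted as 1 sample each, MT2A lost its call (edgeR adjusted p = 0.191).

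With PRT4165, SLC30A1, MT1X and MTF1 were higher than with Scramble, SLC30A1 by the most of these. SLC30A1 was 1.67-fold higher than in Scramble (log2 change 0.74, SE 0.044, edgeR adjusted p = 1.0e-12), a change reached upward by 8.66% of genes. MT1X was 1.397-fold higher (log2 change 0.48, SE 0.088, adjusted p = 8.1e-05) and MTF1 1.09-fold higher (log2 change 0.13, SE 0.048, edgeR adjusted p = 0.033). MT2A was above Scramble in 2 of 2 libraries (log2 change 0.43, 95% interval 0.039 to 0.81), but did not pass the test (adjusted p = 0.080), nor did MT1F (adjusted p = 0.11). Thus 3 members were called higher, where 19.9% of all genes were called higher, 21.7% lower and 41.6% in either direction. The log2 change of MT2A was 0.44 each time without replicate 1, replicate 2 or both of the libraries labelled RNF2 shRNA2. Without both, edgeR called it (adjusted p = 2.8e-14). That fit leaves mostly the 3 pairs that may each be a single sample measured in repeat, so its p-value may measure technical spread. DESeq2 (adjusted p = 0.0112) and limma-voom (adjusted p = 0.0011) on all 10 libraries also called MT2A. With the pairs counted as 1 sample each, edgeR did not call it. MTF1 lost its call without PRT4165 replicate 1 (adjusted p = 0.185), without Scramble replicate 1 (adjusted p = 0.179) and with the pairs counted as 1 sample each (edgeR adjusted p = 0.213).

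**Figure D3:**
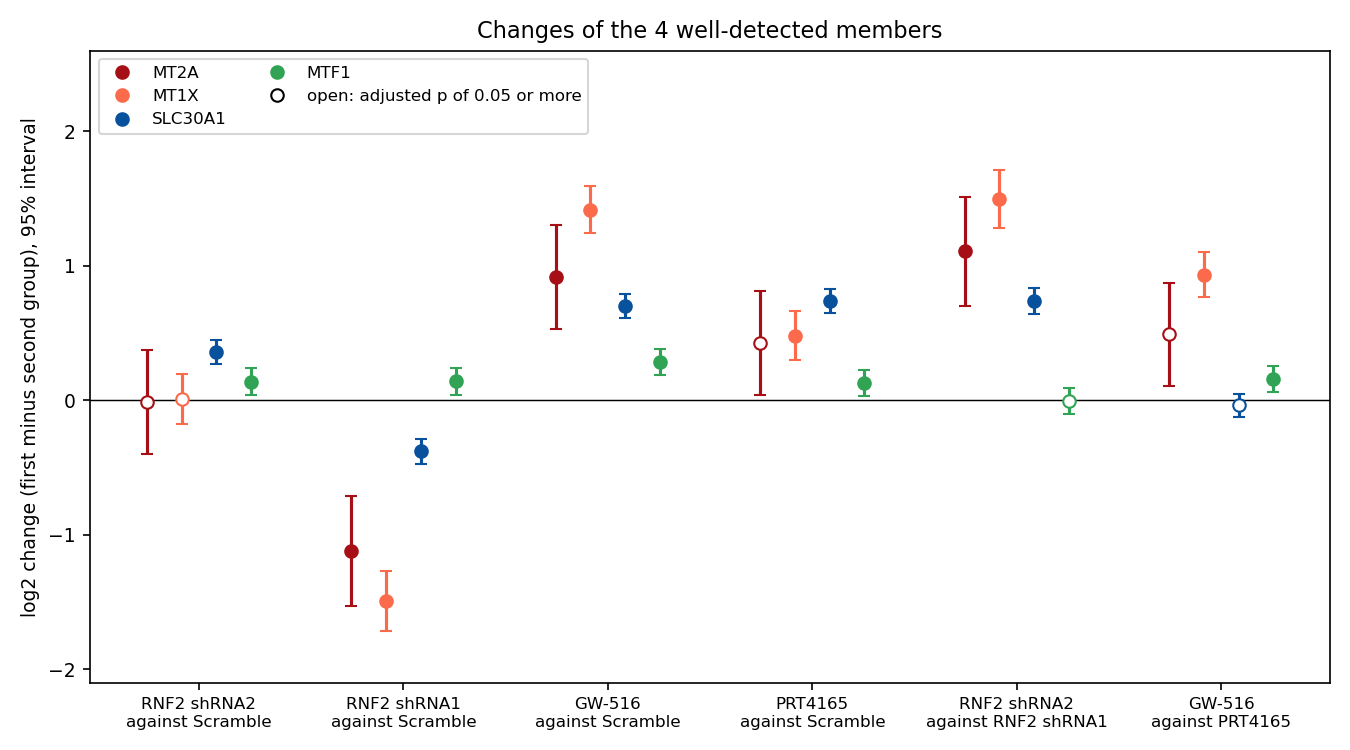
Log2 changes of MT2A, MT1X, SLC30A1 and MTF1 in 6 comparisons, first group minus second, with 95% intervals from edgeR; filled points passed an adjusted p of 0.05 and open points did not. With GW-516 the 4 genes lie above 0, with RNF2 shRNA1 MT2A, MT1X and SLC30A1 lie below it, and the intervals of MT2A are the widest of the 4 genes.

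The groups labelled as the 2 hairpins differed from each other in MT2A, MT1X and SLC30A1. Relative to RNF2 shRNA1, the libraries labelled RNF2 shRNA2 were 2.83-fold higher in MT1X (edgeR adjusted p = 5.8e-12), 2.16-fold higher in MT2A (log2 change 1.11, SE 0.160, adjusted p = 0.0018) and 1.67-fold higher in SLC30A1 (0.74, SE 0.045, adjusted p = 4.8e-13). MTF1 gave no call, with a log2 change of -0.0026 and a 95% interval from -0.100 to 0.095. MT1F had 16 counts against 2, and its call is not used. Leaving it aside, 3 members were called higher, where 29.9% of all genes tested were called higher, 29.2% lower and 59.2% in either direction. MT2A lost its call when only these groups were fitted (edgeR adjusted p = 0.0556) and with the pairs counted as 1 sample each (0.109).

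GW-516 and PRT4165 differed in MT1X and MTF1 but gave no call in SLC30A1. MT1X was 1.91-fold higher with GW-516 than with PRT4165 (log2 change 0.94, SE 0.081, edgeR adjusted p = 1.4e-09) and MTF1 1.117-fold higher (log2 change 0.16, SE 0.046, adjusted p = 0.0074). For SLC30A1 the log2 change was -0.037, with a 95% interval from -0.12 to 0.051 (edgeR adjusted p = 0.53). MT2A was higher with GW-516 in 2 of 2 libraries (log2 change 0.49, 95% interval 0.11 to 0.87), with an adjusted p of 0.051 that fell to 1.3e-15 when edgeR was run without the libraries labelled RNF2 shRNA2. That fit leaves mostly pairs that may each be a single sample measured in repeat, so its p-value may measure technical spread. The 2 members called higher stand beside 18.1% of all genes tested called higher, 23.0% lower and 41.1% in either direction. MTF1 lost its call with the pairs counted as 1 sample each (edgeR adjusted p = 0.134), without PRT4165 replicate 2 (0.0709) and without GW-516 replicate 2 (0.0642).

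The 6 metallothioneins were also summed, since reads may be shared between them. The sum was 190.8 and 137.7 CPM in the libraries labelled RNF2 shRNA2, 73.7 and 76.4 CPM with RNF2 shRNA1, 319.5 and 315.2 CPM with GW-516, 216.5 and 227.7 CPM with PRT4165, and 166.2 and 163.5 CPM with Scramble. It followed MT2A, which made up 93.6% to 96.7% of it. Set against Scramble, the sum was 2.20-fold lower with RNF2 shRNA1 (edgeR adjusted p = 0.0016) and 1.93-fold higher with GW-516 (adjusted p = 0.0029). Against PRT4165, GW-516 was 1.43-fold higher (edgeR adjusted p = 0.040), but the call was lost when any 1 of the 8 libraries not labelled RNF2 shRNA2 was left out (adjusted p from 0.067 to 0.153). With the pairs counted as 1 sample each, none of these 3 calls of the sum held (edgeR adjusted p = 0.135, 0.172 and 0.365).

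The balance between the 2 main copies was not fixed. Counts of MT2A over counts of MT1X were 23.0 and 18.4 in the libraries labelled RNF2 shRNA2, 29.6 and 25.3 with RNF2 shRNA1, 14.9 and 14.9 with GW-516, 19.1 and 21.7 with PRT4165, and 20.8 and 21.4 with Scramble. The ratio was lowest with GW-516, where MT1X had the larger log2 increase, and highest with RNF2 shRNA1, where MT1X had the larger decrease. The ratio of exporter to regulator differed between groups too. SLC30A1 over MTF1, each in CPM per kb, was 2.39 and 2.64 in the libraries labelled RNF2 shRNA2, 1.51 and 1.495 with RNF2 shRNA1, 2.90 and 2.85 with GW-516, 3.26 and 3.34 with PRT4165, and 2.22 and 2.10 with Scramble. Neither ratio was tested.

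Other zinc transporters did not share 1 direction. Of 9 further SLC30 exporters 6 were tested, and of 14 SLC39 importers 12. With RNF2 shRNA1, 6 importers were called higher and 3 lower than in Scramble, with a median log2 change of 0.18 over the 12. The libraries labelled RNF2 shRNA2 had 2 higher and 4 lower (median -0.024), GW-516 3 higher and 4 lower (median -0.099), and PRT4165 1 higher and 4 lower (median -0.047). The median over all genes lay within 0.015 of 0 in each comparison, and 41.6% to 55.5% of all genes were called against Scramble. Among exporters other than SLC30A1, the calls were 1 higher and 1 lower with RNF2 shRNA1, 2 and 0 in the libraries labelled RNF2 shRNA2, 2 and 1 with GW-516, and 1 and 1 with PRT4165. SLC30A8, called higher in the libraries labelled RNF2 shRNA2, had only 10 and 32 counts there against 7 and 2 in Scramble (edgeR adjusted p = 0.049). The groups labelled as hairpins differed from each other in 4 importers higher and 5 lower, and GW-516 against PRT4165 in 5 higher and 2 lower. For the exporters these numbers were 2 and 1, and 1 and 1. Of all genes tested, 59.2% were called in either direction between the hairpin groups and 41.1% for GW-516 against PRT4165. SLC39A12, an importer called higher between the hairpin groups, had only 30 and 22 counts against 6 and 6 with RNF2 shRNA1.

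SLC39A10, which brings zinc in across the plasma membrane, moved opposite to SLC30A1 in both hairpin groups. It had 86.7 and 88.0 CPM in the libraries labelled RNF2 shRNA2, 319.7 and 312.7 CPM with RNF2 shRNA1, 113.9 and 120.0 CPM with GW-516, 156.8 and 150.9 CPM with PRT4165, and 151.2 and 151.9 CPM with Scramble. RNF2 shRNA1 stood above all other groups and the libraries labelled RNF2 shRNA2 below them. Its log2 change against Scramble was 1.06 with RNF2 shRNA1 (SE 0.032, edgeR adjusted p = 1.4e-18). For the libraries labelled RNF2 shRNA2 it was -0.79 (SE 0.033, adjusted p = 1.8e-15) and with GW-516 -0.37 (SE 0.033, edgeR adjusted p = 4.8e-10). With PRT4165 it was 0.022, with a 95% interval from -0.046 to 0.089.

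Further transporters were called in several groups. SLC39A8, a zinc and manganese importer, was lower with RNF2 shRNA1 (log2 change -0.43, edgeR adjusted p = 8.3e-09), whereas the libraries labelled RNF2 shRNA2 had more of it (0.35, adjusted p = 1.9e-07). SLC39A13, which releases zinc from intracellular vesicles, was higher with RNF2 shRNA1 (0.42), GW-516 (0.53) and PRT4165 (0.37), with edgeR adjusted p of 1.7e-06, 4.2e-08 and 1.9e-05. SLC30A6, an exporter of the secretory pathway, was lower with RNF2 shRNA1 (log2 change -0.13, edgeR adjusted p = 0.012). It was higher in the libraries labelled RNF2 shRNA2 (0.48, 1.5e-09), with GW-516 (0.24, 3.2e-05) and with PRT4165 (0.18, 0.0015). SLC30A9, the mitochondrial zinc exporter, fell with GW-516 (log2 change -0.42, edgeR adjusted p = 1.2e-09).

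**Figure D4:**
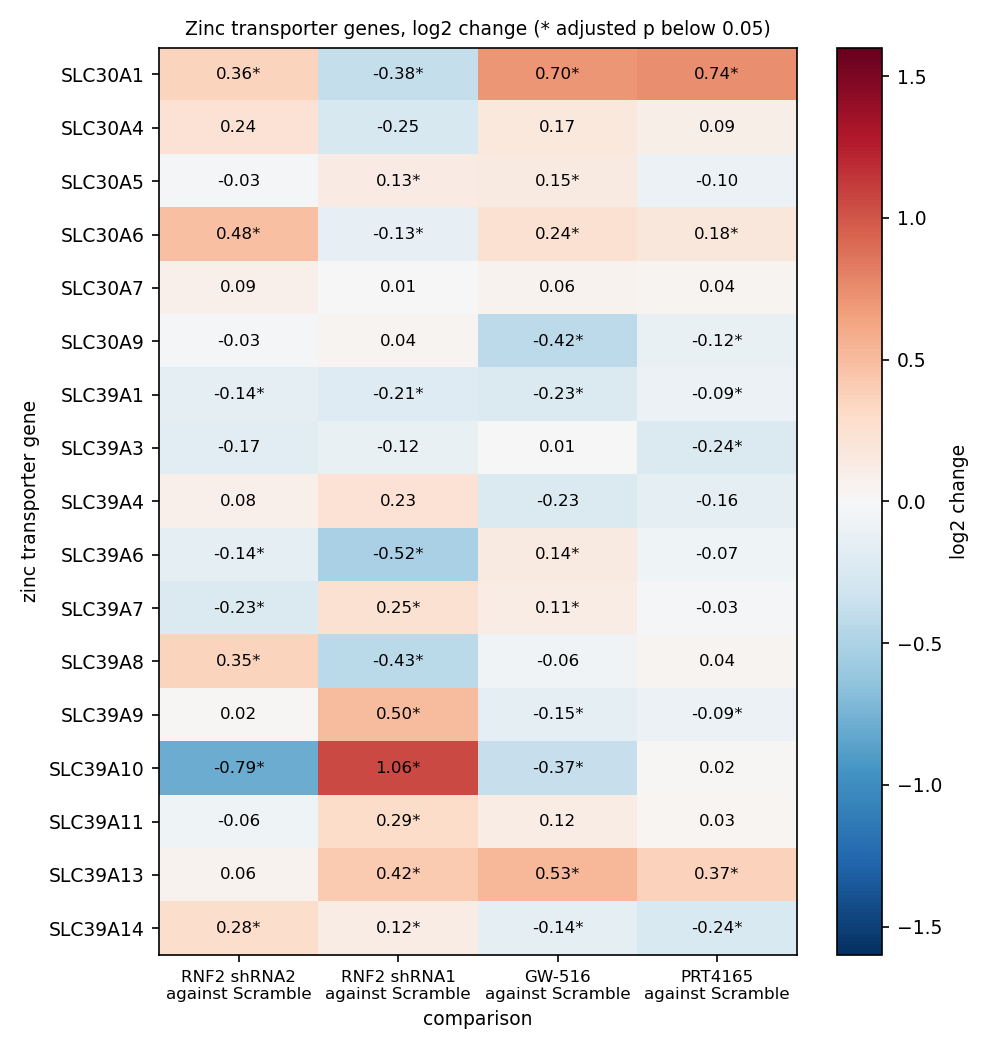
Log2 changes against Scramble of SLC30A1, of the other SLC30 exporters and of the SLC39 importers that averaged at least 1 CPM; red is higher, blue is lower and an asterisk marks an edgeR adjusted p below 0.05. SLC30A1 changes by 0.70 and 0.74 with the compounds, and SLC39A10 by 1.06 with RNF2 shRNA1 and -0.79 in the libraries labelled RNF2 shRNA2.

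Genes of the wider response to metals and oxidants were described next to the members. Of 8 tested genes of a list of 10, 7 were called higher and 0 lower with GW-516 (median log2 change 0.48), and against PRT4165 all 8 were higher (median 0.52). Of all genes tested, 26.5% were called higher in the first of these comparisons and 18.1% in the second. PRT4165 itself had 3 higher and 1 lower than Scramble, RNF2 shRNA1 3 and 3, and the libraries labelled RNF2 shRNA2 3 and 1. Those libraries against RNF2 shRNA1 gave 4 and 4. Against Scramble, 41.6% of all genes were called in either direction with PRT4165, 54.7% with RNF2 shRNA1 and 42.1% in the libraries labelled RNF2 shRNA2. Between the hairpin groups the share was 59.2%. HMOX1, the haem-degrading oxygenase, had 69.7 and 66.8 CPM with GW-516 and 20.3 and 20.6 CPM with PRT4165, against 12.95 and 11.6 CPM with Scramble. That is 5.56-fold higher with GW-516 (log2 change 2.47, SE 0.062, edgeR adjusted p = 2.9e-20) and 1.66-fold higher with PRT4165 (0.73, SE 0.066, adjusted p = 2.1e-09). GCLM, a subunit of the enzyme that starts glutathione synthesis, was 1.46-fold and NQO1, a quinone reductase, 1.57-fold higher with GW-516 (edgeR adjusted p = 1.3e-10 and 6.0e-16).

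Copper-handling genes gave 4 higher and 0 lower calls of 9 with GW-516, among them ATP7A, a copper pump (log2 change 0.51, edgeR adjusted p = 2.8e-05), and SLC31A2, a copper transporter (0.70, adjusted p = 2.6e-05). Of all genes tested, 26.5% were called higher and 55.5% in either direction in that comparison. ATP7A was lower with RNF2 shRNA1 (-0.60, adjusted p = 1.1e-05), where the list gave 1 higher and 3 lower. The libraries labelled RNF2 shRNA2 gave 1 and 1 against Scramble and 3 and 2 against RNF2 shRNA1. PRT4165 gave 0 and 1 against Scramble, and GW-516 5 and 0 against PRT4165. Against Scramble, 54.7% of all genes were called in either direction with RNF2 shRNA1, 42.1% in the libraries labelled RNF2 shRNA2 and 41.6% with PRT4165. The shares were 59.2% between the hairpin groups and 41.1% for GW-516 against PRT4165.

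The glucocorticoid receptor is also known to drive MT2A, and 9 of a list of 10 genes, the receptor gene NR3C1 and known targets, were tested. With RNF2 shRNA1, 6 were higher and 3 lower than in Scramble, in the libraries labelled RNF2 shRNA2 4 and 4, with GW-516 6 and 1, and with PRT4165 5 and 2. The libraries labelled RNF2 shRNA2 had 2 higher and 5 lower than RNF2 shRNA1, and GW-516 5 higher and 1 lower than PRT4165. The shares of all genes called higher against Scramble were 26.2% with RNF2 shRNA1, 21.1% in the libraries labelled RNF2 shRNA2, 26.5% with GW-516 and 19.9% with PRT4165. Between the hairpin groups 29.9% were called higher and 29.2% lower. For GW-516 against PRT4165 these shares were 18.1% and 23.0%. TSC22D3, a target of the receptor, was higher with RNF2 shRNA1 (log2 change 1.37, edgeR adjusted p = 2.2e-13) as with GW-516 (1.33, adjusted p = 3.0e-13). ERRFI1, also of the list, was higher in each of the 4 groups, 3.48-fold with RNF2 shRNA1 and 1.86-fold with GW-516. With RNF2 shRNA1, PER1 was 2.09-fold higher and SGK1 2.10-fold lower. DUSP1 was 4.79-fold higher with GW-516, and SGK1 was 1.67-fold lower with PRT4165. All of these were called by edgeR. CEBPD, a transcription factor gene of the list, was picked after its values were seen. CEBPD was lower with RNF2 shRNA1 (-0.81) and higher with GW-516 (0.76) and PRT4165 (0.68), each called by edgeR. FKBP5, another target, was lower in each of the 4 groups, from -0.25 with PRT4165 to -0.57 with GW-516 on the log2 scale.

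Within 500 kb of the metallothioneins, 12 of 34 neighbouring genes were tested. GW-516 gave 3 higher and 6 lower calls than Scramble among them, PRT4165 0 and 6, RNF2 shRNA1 4 and 6, and the libraries labelled RNF2 shRNA2 3 and 3. Those libraries gave 6 and 3 against RNF2 shRNA1, and GW-516 3 and 4 against PRT4165. Of all genes tested, 55.5% were called in either direction against Scramble with GW-516, 41.6% with PRT4165, 54.7% with RNF2 shRNA1 and 42.1% in the libraries labelled RNF2 shRNA2. The shares were 59.2% between the hairpin groups and 41.1% for GW-516 against PRT4165. HERPUD1, a protein of endoplasmic reticulum stress, was higher both with RNF2 shRNA1 (log2 change 1.11) and with GW-516 (0.74), and NUDT21, an mRNA 3′ end processing factor, was lower in each (-0.16 and -0.67), all called by edgeR.

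Genes with the pattern most like that of the members were sought among 10731 genes that averaged 5 CPM or more, by the root-mean-square difference of their 4 log2 changes against Scramble. These changes share the Scramble libraries. Nearest to the summed metallothioneins were SYNPO, an actin-associated protein, at 0.105, the glucose transporter SLC2A1 at 0.113, TCAF2 at 0.135, LPXN at 0.182 and the collagen prolyl hydroxylase P4HA2 at 0.186. This measure counts the size of a change as well as its direction. MT2A, the main part of the sum, lay at 0.016 with 0 genes nearer. MT1X changed more than the sum with RNF2 shRNA1 (-1.49 against -1.14) and with GW-516 (1.42 against 0.94). MT1X thus lay at 0.297, with 33 genes nearer. SLC30A1 lay at 0.464 with 193 nearer and MTF1 at 0.738 with 2624 nearer. Nearest to SLC30A1 were the adaptor gene BCAR1 at 0.053, SHB at 0.086, FLNC, an actin cross-linker, at 0.115, ARHGEF6 at 0.133 and the potassium channel gene KCNC4 at 0.135. BCAR1 had log2 changes of -0.43 with RNF2 shRNA1, 0.41 in the libraries labelled RNF2 shRNA2, 0.78 with GW-516 and 0.71 with PRT4165.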

How the data were processed

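RNA-seq of 10 PC3 libraries, 2 per group, was analysed from the authors' deposited raw counts per gene, with no normalization. Per the file headers, featureCounts 1.4.3-p1 counted GENCODE 18 exons with strand option 2 and no option for read pairs, so both ends of a fragment were counted. The submitters' processing notes name STAR, DESeq2 1.8.1 and the build hg19 (GRCh37). The deposited exon length (other unit, bases) served for CPM per kb. Stranded paired-end libraries were made from messenger RNA, per the labels' protocols.

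Counts were scaled by TMM and tested with edgeR 4.0.16 (R 4.3.3): a filterByExpr minimum of 10 counts, a model of group means fitted to the 10 libraries together (residual degrees of freedom 5), and two-sided quasi-likelihood F tests with robust dispersion, adjusted by Benjamini and Hochberg over 18478 genes, and called below 0.05. Total counts of 65877850 to 108380198 set the precision. The code was tested on simulated data. Of 57445 identifiers, 39410 matched a symbol. Named were the 8 members, RNF2 and BMI1, genes of 6 lists (up to 4 per list and comparison by smallest adjusted p among called genes averaging 1 CPM or more in a group compared), and the 5 genes nearest in pattern to the summed metallothioneins and to SLC30A1; NUDT21, HERPUD1 and list genes given outside the comparisons where this rule picks them were chosen after their values were seen. Members and lists were chosen with earlier results of these data known. The alternatives comprised DESeq2 1.42.0, limma-voom 3.58.1, RLE size factors, other filters, a replicate block, the groups compared alone, near-identical pairs summed, an adjusted p below 0.01 and each library left out; a fit without both libraries labelled RNF2 shRNA2 was added after seeing the data.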

Additional observations from a re-analysis of the deposited data

Results flagged for a closer look

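SLC30A1 differed in its change between the hairpin groups: relative to Scramble it was higher in the libraries labelled RNF2 shRNA2 (log2 change 0.36) and lower with RNF2 shRNA1 (-0.38). The test of the difference itself, the libraries labelled RNF2 shRNA2 against RNF2 shRNA1, gave a log2 change of 0.74 (SE 0.045, edgeR adjusted p = 4.8e-13), higher in 2 of 2 libraries. RNF2 was not lower in the libraries labelled RNF2 shRNA2, and BMI1 was, so the difference is between these libraries and cannot be read as that between 2 hairpins against the same gene.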

How the results depend on the processing

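MT1X and SLC30A1 kept their direction and their side of the threshold in each of 118 alternative values per gene, over the 6 comparisons, wherever they were called. MT2A gained calls in 15 values, lost 4 and reversed in 1, and MTF1 lost 16 and MT1F 13. The summed metallothioneins with PRT4165 against Scramble passed the threshold with DESeq2 (log2 change 0.44, adjusted p = 0.0081), limma-voom (0.43, 7.7e-04), the groups compared alone (0.45, 6.9e-10) and without both libraries labelled RNF2 shRNA2 (0.44, 1.5e-14), and ran from 0.41 to 0.47 with single libraries left out. For GW-516 against PRT4165 the sum missed it with no filter on low counts (0.52, adjusted p = 0.065), near-identical pairs summed (0.51, 0.365) and a threshold of 0.01 (0.51, 0.040), and ran from 0.48 to 0.55 with single libraries left out. Between the hairpin groups it missed it with the groups alone (1.118, adjusted p = 0.0506) and pairs summed (1.11, 0.0990). Pairs summed also ended the call for RNF2 shRNA1 (-1.13, adjusted p = 0.135) and GW-516 (0.95, 0.172) against Scramble. For the libraries labelled RNF2 shRNA2 against Scramble the sum ran from -0.26 to 0.20 with single libraries left out. It was reversed without replicate 2 (0.20), as was MT2A (0.20, against -0.27 without replicate 1).

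Members called, MT1F included, fell to 2 with RNF2 shRNA1 against Scramble (pairs summed), 2 between the hairpin groups (groups alone, and pairs summed), 1 in the libraries labelled RNF2 shRNA2 against Scramble (pairs summed, and a threshold of 0.01) and 1 for GW-516 against PRT4165 (pairs summed). With single libraries left out, members called ran from 1 to 2 in the libraries labelled RNF2 shRNA2 against Scramble and from 1 to 3 for GW-516 against PRT4165. Of all genes, pairs summed called 4902, 4911 and 4555 in the libraries labelled RNF2 shRNA2 against Scramble, PRT4165 against Scramble and GW-516 against PRT4165, against 7772, 7695 and 7594 with 10 libraries. That fit has fewer samples, by construction. Any other cause was not tested. With single libraries left out, all genes called ran from 6016 to 8116 in the libraries labelled RNF2 shRNA2 against Scramble. For GW-516 against PRT4165 they ran from 5666 to 8244. For the other falls in members called, the number of all genes called in the same fit is not given here. Those falls are therefore not set against the general fall in calls.

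Replicate numbers did not pair the samples: differences of the same numbers between groups correlated from -0.2 to 0.056 over 9605 genes. With replicate number as a block, the sum for GW-516 against PRT4165 (log2 change 0.51) missed the threshold (edgeR adjusted p = 0.059), as did MT1F between the hairpin groups (adjusted p = 0.0501), and no other call of a member changed. Depth limits MT1E, MT1G and MT1M, which were too low to test, and MT1F, with 120 counts in all.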
